A study of Mus musculus with 7 samples.

Results

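Replication-dependent and linker histone genes were taken as every protein-coding row of the deposited expression table whose symbol begins with H1f, H2ac, H2bc, H3c or H4c followed by a digit. The rule found 69 of the 55357 genes in the table (21771 of them protein-coding), namely 11 linker histone H1 genes, 17 H2A, 17 H2B, 12 H3 and 12 H4 genes. A further 3 rows with names of this pattern were pseudogenes and were left out. The name pattern is wider than replication-dependent histones. H1f0 and H1f10 encode linker histones that are made outside S phase, H2bc21 encodes a replication-independent H2B of olfactory neurons, and H1f6, H1f7, H1f8, H1f9, H2ac1 and H2bc1 belong to the germ line. The genes lie in 2 clusters and at a few single sites. 54 genes lay on chromosome 13 between 21899933 and 24118834, and 10 on chromosome 3 between 96127181 and 96177448. Of the other 5, 2 lay on chromosome 6, 2 on chromosome 15 and 1 on chromosome 11 (GRCm39, coordinates of the deposited table).

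The libraries came from live CD45+ CD8+ cells, sorted by flow cytometry out of subcutaneous MCA205 tumours, a transplantable mouse fibrosarcoma, on day 14. The tumours grew in C57Bl/6 wild-type hosts (WT, 3 samples, replicates 1, 2 and 3) or in hosts deficient for the nucleoside transporter ENT1 (ENT1KO, Slc29a1-/-, 4 samples, replicates 11, 12, 14 and 15). All samples thus share the tumour line, the time and the sort. RNA (75 ng) from at least 30000 cells was poly(A)-selected. The labels name neither the age or sex of the hosts nor the part of Slc29a1 that was deleted, and they do not say that each sample was a separate animal, so the spread behind each p-value is that between these samples and may be technical.

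Core histones H2A, H2B, H3 and H4 form the nucleosome, and linker histone H1 binds the DNA that enters and leaves it. Dividing cells make most of their histone mRNA during S phase, from clustered genes without introns. These mRNAs do not end in a poly(A) tail but in a conserved stem-loop that the stem-loop binding protein SLBP holds, and they are degraded when replication stops. Histone genes used outside S phase, such as H1f0, make ordinary polyadenylated mRNA, and some clustered genes have a second, distal poly(A) site. Poly(A) selection keeps tailed RNA and loses most RNA that ends in the stem-loop, and the levels below are those of RNA that passed this selection.

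The 3' end of the gene models shows both kinds of transcript, and the stem-loop sites of the genes on which the results turn are printed here as DNA letters, 5' to 3', with the 16 bases of the stem-loop in capitals. The search took 16 bases that open with GG, close with CC and hold CTTTT and, after 1 free base, AG between 2 free bases on each side. It ran on the sense strand of GENCODE M21 transcripts (GRCm38), to which all 79 transcripts of the members matched by identifier. It occurred in 41 of the 69 genes (59.4%), against 89 of 55450 genes (0.161%) and 124 of 141767 transcripts (0.0875%) in the whole annotation. The form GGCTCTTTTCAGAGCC was shared by 24 genes, of which 3 were H1, 9 H2A, 7 H2B and 5 H3 genes. None of the 10 H4 genes with a match had it, since 6 had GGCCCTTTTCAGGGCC, 2 had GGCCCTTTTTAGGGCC and 2 had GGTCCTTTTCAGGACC.
H1f2: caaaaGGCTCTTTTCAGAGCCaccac
H2ac24: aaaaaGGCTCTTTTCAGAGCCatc
H2ac18: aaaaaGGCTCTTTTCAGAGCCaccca
H2ac19: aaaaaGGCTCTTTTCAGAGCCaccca
H2ac8: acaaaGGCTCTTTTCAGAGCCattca
H2bc8: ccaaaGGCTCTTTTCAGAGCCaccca
H4c17: ctaaaGGCCCTTTTCAGGGCCatc
H4c18: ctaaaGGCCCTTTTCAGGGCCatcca
H4c9: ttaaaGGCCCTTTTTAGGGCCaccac
H1f0, H1f10, H2bc4 and H2bc21 had no match in any of their annotated transcripts. H1f0, H1f10 and H2bc4 were among the 4 genes called lower below.

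Levels are given in TPM, which corrects reads for transcript length and gives each library an equal total. Normalized counts are reads per gene divided by a size factor per library, from the second deposited table, and the 2 measures did not always show the same genes. A gene was tested when it reached 1 TPM in at least 3 libraries. Each difference is the ENT1KO mean less the WT mean of log2(TPM + 1), a scale on which the change of a low gene is understated, with limma-trend adjusted p over 13798 genes. A gene was called at an adjusted p under 0.05. By this rule 50.6% of all genes tested were called, 27.5% higher and 23.1% lower, and the median log2 difference over all genes was 0.15. The targeted gene Slc29a1 stood at 13.2 to 17.6 TPM in ENT1KO and 49.7 to 58.9 TPM in WT (log2 difference -1.78, limma adjusted p = 0.00121). Each library held 18624318 to 19660792 gene-assigned reads, if the step between its normalized counts is 1 read, which is not proved for WT replicates 1 and 3.

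Markers of other cells differed between the groups, and this bears on every comparison below. The 14 CD8 T cell identity genes were all called higher in ENT1KO, with a summed level of 10248 to 12475 TPM against 3153 to 7685 TPM in WT. The 17 fibroblast and tumour genes tested were all called lower. The sum over that list was 93.6, 202, 923 and 11.9 TPM in ENT1KO replicates 11, 12, 14 and 15, and 6509, 8363 and 4398 TPM in WT replicates 1, 2 and 3. Of the macrophage and monocyte genes 14 of 15 were called lower (602 to 1747 TPM summed, against 3961 to 5612 TPM), and of the erythroid genes 5 of 5 (57.7 to 239 TPM against 697 to 1966 TPM). Neutrophil genes were called lower in 5 of 5, dendritic genes in 5 of 9 and NK genes in 2 of 6 with 1 higher. Endothelial genes were called lower in 5 of 6 with 1 higher, and B cell genes higher in 2 of 2. No marker was at 0 in all 4 ENT1KO libraries, but Col5a1, Col6a1, Lum and Mgp were at 0 in replicate 15. The part of these cells in the histone differences was not tested. In bulk RNA, fewer cells of a type and less RNA per cell cannot be told apart.

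Most histone genes were scarcely detected on TPM, which divides by the length of the gene model. On normalized counts 17 of the 69 genes averaged 10 or more. Among these H1f3, with a model of 7425 bases, averaged 34.4 but only 0.30 TPM. Over the 69 genes the median of the mean level was 1.05 TPM, 4 genes (H1f7, H1f9, H2ac1 and H2bc1) were listed at 0 TPM in all 7 libraries, and 24 never reached 1 TPM. 39 genes were above 0 in all 7 libraries, and 63 stayed under 10 TPM in every one. Only 5 genes averaged 10 TPM or more, namely H2ac24, H1f0, H1f2, H2bc4 and H2ac18. H2ac24, H1f0, H1f2 and H2bc4 alone held 76.5% to 86.2% of the TPM of all 69 genes in a library. By family, H2A took 46.5% to 61.2% of that TPM, H1 25.1% to 40.3%, H2B 6.11% to 8.71%, H4 3.86% to 7.27% and H3 1.41% to 2.68%. H2ac24, H2ac18 and H2ac19 held 43.7% to 59.3% of it, and had a normalized count of 0 in all 7 libraries. On normalized counts the mean H2A sum was 51.5 in ENT1KO and 68.8 in WT, and the mean H1 sum 3267 and 7212. The mean sum of all 69 genes on that scale was 3794 and 8046, so the family order depends on the measure. The core histones enter a nucleosome in equal number, and these shares are of the RNA that passed poly(A) selection.

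**Figure D1:**
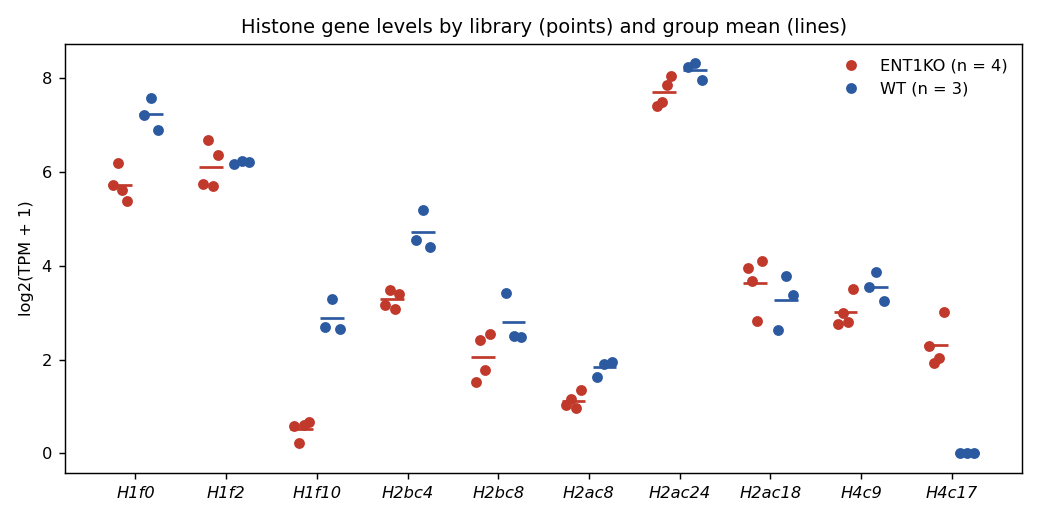
Level of 10 histone genes on the log2(TPM + 1) axis, 1 point per library (red, 4 ENT1KO; blue, 3 WT), with a line at each group mean. H1f0, H1f10, H2bc4 and H2ac8 show groups that do not overlap with ENT1KO below, H4c17 shows ENT1KO above WT libraries that are all at 0, and the groups of H1f2, H2ac24, H2ac18, H2bc8 and H4c9 overlap.

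Of the 69 genes 36 passed the filter, and of these 4 were called lower (H1f0, H1f10, H2bc4 and H2ac8), 2 higher (H4c17 and H2ac13) and 30 not called. These counts stand beside 23.1% of all genes tested called lower and 27.5% called higher. The median difference of the 36 was -0.10, beside 0.15 over all genes, and 25 of the 36 were below 0. Groups did not overlap, with ENT1KO lower, in 5 of the 36, against 24.9% of all genes, and with ENT1KO higher in 1, against 30.3% (55.2% in either direction). Of the 36, 4 reached 1 TPM in the libraries of 1 group alone (H1f10 in WT, H4c17, H2ac13 and H2bc18 in ENT1KO) and so entered the test only through the group where they were high. These include 3 of the 6 called genes and both of those called higher. On normalized counts 33 of the 36 could be tested, of which 5 were called lower and 1 higher by limma, where 28.5% of all genes were called lower and 21.2% higher. The 33 genes under the filter, at 0 to 2.17 TPM in any library, had TPM groups that overlapped in every case. On normalized counts the groups of H3c10, H2bc9 and H2ac4, also under the filter, did not overlap, with ENT1KO lower. Their mean normalized counts were 3.84, 9.13 and 2.98, and they had no test. By family the counts tested, lower and higher were 5, 2 and 0 for H1, 9, 1 and 1 for H2A, 10, 1 and 0 for H2B, 3, 0 and 0 for H3 and 9, 0 and 1 for H4.

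**Figure D2:**
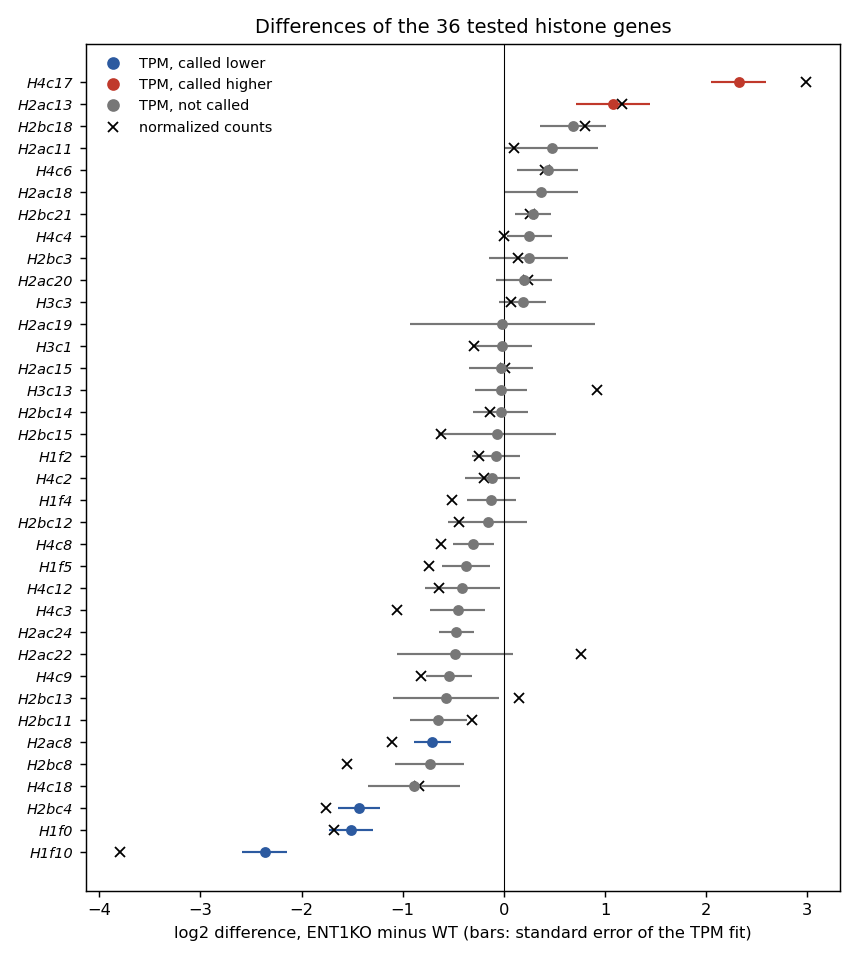
Difference of each of the 36 tested histone genes, ENT1KO minus WT, for log2(TPM + 1) (circles, with the standard error of the fit as bars) and for log2(normalized count + 1) (crosses). H1f10, H1f0 and H2bc4 lie lowest on both scales, H4c17 lies highest, and most of the other genes lie near 0.

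Of the linker histones H1f0 and H1f10 fell. H1f0 (ENSMUSG00000096210.3, chr15:78912650-78914704, GRCm39) encodes H1.0, the linker histone of differentiated and resting cells. Its level was 52.2, 72.0, 47.8 and 41.0 TPM in the ENT1KO libraries (replicates 11, 12, 14 and 15) and 148, 192 and 119 TPM in the WT libraries (replicates 1, 2 and 3), the order kept below. Every ENT1KO library thus lay below every WT library, with means of 53.2 ± 13.3 TPM (SD, n = 4) and 153 ± 36.6 TPM (SD, n = 3). The log2 difference was -1.51 (standard error 0.22, limma adjusted p = 0.00175), and -1.68 on normalized counts (limma adjusted p = 0.00353). The authors' deposited table gives a log2 fold change of -1.69 with an adjusted p of 7.11e-09. No stretch of 50 bases of H1f0 occurs in another annotated gene, so its reads were not open to a near-identical copy at that length.

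H1f10 (ENSMUSG00000044927.7, chr6:87957403-87958619) encodes H1.10, a divergent linker histone that is also made outside S phase. It stood at 0.50, 0.17, 0.52 and 0.58 TPM in the 4 ENT1KO libraries and at 5.49, 8.82 and 5.27 TPM in the 3 WT libraries. It passed the filter through the WT libraries alone, which its test does not allow for. The groups did not overlap, with a log2 difference of -2.36 (standard error 0.22, limma adjusted p = 0.00121). On normalized counts, where the means were 8.6 and 133, the difference was -3.79 (limma adjusted p = 0.00289). The authors' deposited table gives -3.95 with an adjusted p of 7.08e-16. H1f10 shared no 50-base stretch with another gene either. The fibroblast and tumour sums were 93.6, 202, 923 and 11.9 TPM in ENT1KO replicates 11, 12, 14 and 15. In the same order H1f10 stood at 0.50, 0.17, 0.52 and 0.58 TPM and H1f0 at 52.2, 72.0, 47.8 and 41.0 TPM. Against WT, H1f0 and H1f10 moved in the direction of the fibroblast, macrophage and erythroid markers, and opposite to the CD8 T cell identity genes. The part of cell makeup was not tested.

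H1f2 (chr13:23922791-23924350) encodes H1.2, a replication-dependent linker histone that many cell types also make as polyadenylated RNA. Its levels were 52.3, 102, 51.1 and 80.9 TPM in ENT1KO and 70.7, 73.9 and 73.0 TPM in WT. The WT libraries lay close together and inside the ENT1KO range, and the log2 difference was -0.08 (standard error 0.24, limma adjusted p = 0.791). Its gene model has the stem-loop printed above and runs on for 840 bases beyond it, with AATAAA, the poly(A) signal, in its last 50 bases. H1f4 (H1.4) and H1f5 (H1.5), also replication-dependent, averaged 1.89 and 1.94 TPM, with log2 differences of -0.12 (limma adjusted p = 0.680) and -0.37 (limma adjusted p = 0.215). Of the other H1 genes, H1f1 and H1f3 were at 0.10 to 1.5 TPM, and the germ-line H1f6 and H1f8 at 0 to 0.29 TPM. Summed over the 11 H1 genes, the level was 104 to 178 TPM in ENT1KO and 203 to 280 TPM in WT, without overlap. The largest terms were H1f0, whose groups did not overlap, and H1f2, whose groups did. This sum has no test and does not show a fall of all H1 genes. H1f2 was above H1f0 in each ENT1KO library, by as little as 52.3 against 52.2 TPM in replicate 11, whereas in each WT library H1f0 was above H1f2.

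The 300 bases around the start of each gene, of which the last 50 follow it, were read from RefSeq windows on GRCm38.p6, present for 62 of the 69 genes as 63 windows. They are printed for the pair of linker histones that fell, for H1f2 and for H2ac8, with matches to 4 motifs in capitals, searched on both strands. The first motif was TATAAA, which places the start of transcription. The second was CCAAT, which the factor NF-Y binds. The third was AAACACA, known as the H1 box of S-phase linker histone genes, and the fourth was the octamer ATTTGCAT, which OCT1 binds at H2B genes.
H1f0, chr15:79027962-79028261, plus strand: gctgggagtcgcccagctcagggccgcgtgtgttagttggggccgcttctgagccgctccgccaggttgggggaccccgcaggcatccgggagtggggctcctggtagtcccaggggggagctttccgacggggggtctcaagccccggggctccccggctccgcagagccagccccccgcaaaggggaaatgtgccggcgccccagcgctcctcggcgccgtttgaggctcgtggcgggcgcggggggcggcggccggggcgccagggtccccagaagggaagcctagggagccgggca
H1f10, chr6:87981433-87981732, minus strand: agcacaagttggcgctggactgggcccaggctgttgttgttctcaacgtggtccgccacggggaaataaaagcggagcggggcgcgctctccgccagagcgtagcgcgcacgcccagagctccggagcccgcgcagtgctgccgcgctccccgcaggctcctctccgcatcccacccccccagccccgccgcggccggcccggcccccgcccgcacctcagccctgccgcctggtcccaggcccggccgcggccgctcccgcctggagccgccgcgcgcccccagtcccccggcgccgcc
H1f2, chr13:23738557-23738856, plus strand: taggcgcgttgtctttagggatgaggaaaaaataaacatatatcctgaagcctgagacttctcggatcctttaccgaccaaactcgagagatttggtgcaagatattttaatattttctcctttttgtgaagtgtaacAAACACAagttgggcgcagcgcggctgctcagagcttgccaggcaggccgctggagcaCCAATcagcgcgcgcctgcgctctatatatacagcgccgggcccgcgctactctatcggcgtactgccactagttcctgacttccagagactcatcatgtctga
H2ac8, chr13:23571171-23571470, minus strand: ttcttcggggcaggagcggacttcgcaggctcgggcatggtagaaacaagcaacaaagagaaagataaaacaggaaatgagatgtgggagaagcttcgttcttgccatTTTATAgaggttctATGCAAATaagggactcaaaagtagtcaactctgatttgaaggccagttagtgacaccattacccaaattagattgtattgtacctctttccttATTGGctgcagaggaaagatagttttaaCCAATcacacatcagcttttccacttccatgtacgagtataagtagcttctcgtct
The H1f0 and H1f10 windows hold none of the 4 motifs, the H1f2 window holds CCAAT and the H1 box, and the H2ac8 window every motif except the H1 box. TATAAA and the octamer stand in the H2ac8 window as their reverse complements, so they read along the plus strand, that of its neighbour H2bc8. Of the 63 windows 34 (53.97%) held TATAAA, against 13.6% of all 32851 windows, and 52 (82.5%) held CCAAT, against 37.4%. CCAAT was in all 17 H2A, all 15 H2B and all 10 H3 windows, in 7 of 10 H1 and in 3 of 11 H4 windows. The octamer was in 6 H2A and 7 H2B windows (20.6% of all members' windows, against 1.74%), and the H1 box in 5 of 10 H1 windows (14.3% of members' windows, against 7.18%). These matches describe the letters and do not show that a factor bound there.

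Among H2B genes, H2bc4 (ENSMUSG00000018102.6, chr13:23868182-23876891) was the only one called on TPM. It stood at 7.99, 10.3, 7.51 and 9.56 TPM in ENT1KO and at 22.4, 35.5 and 20.3 TPM in WT. The lowest WT library was above the highest ENT1KO library, and the means were 8.83 ± 1.29 TPM (SD, n = 4) and 26.1 ± 8.25 TPM (SD, n = 3). The log2 difference was -1.43 (standard error 0.21, limma adjusted p = 0.0017), and the authors' deposited table gives -1.83 with an adjusted p of 1.57e-08. Of its 50-base stretches 30.1% occur in another gene, most often in H2bc8 (23.1%). They occur in 14 other members and in 86 genes outside the members, so a part of its reads could come from any of these. Like H1f0 and H1f10, it moved in the direction of the fibroblast, macrophage and erythroid markers, and the part of cell makeup was not tested.

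H2bc8 and H2ac8 are neighbours that are transcribed away from each other, and their promoter windows overlap. H2bc8 stood at 1.87, 4.35, 2.42 and 4.87 TPM in ENT1KO and at 9.73, 4.65 and 4.57 TPM in WT. The groups overlapped, and the log2 difference of -0.73 was not called (standard error 0.34, limma adjusted p = 0.103). On normalized counts the groups did not overlap and the difference of -1.55 was called (limma adjusted p = 0.0141), as in the authors' deposited table (-1.70, adjusted p 0.0058). H2ac8 stood at 1.05, 1.23, 0.96 and 1.55 TPM in ENT1KO and 2.10, 2.77 and 2.88 TPM in WT. It was called lower, with a log2 difference of -0.71 (standard error 0.18, limma adjusted p = 0.0134), and on normalized counts with -1.10 (limma adjusted p = 0.0227). The authors' deposited table gives -1.19 with an adjusted p of 0.0547, and the limma adjusted p rose to 0.0526 when WT replicate 2 was left out. With quantile normalization the difference was -0.31 and the call was lost.

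The other H2B genes were low and not called. H2bc11 had 2.07 to 5.82 TPM in ENT1KO and 5.41 to 6.06 TPM in WT (log2 difference -0.65, limma adjusted p = 0.0844), and was called without ENT1KO replicate 15 (-0.87, limma adjusted p = 0.0183). On normalized counts its difference was -0.32 and was not called (limma adjusted p = 0.540). The authors' deposited table gives H2bc11 -0.23 with an adjusted p of 0.793. H2bc21 stood at 3.35, 3.08, 2.63 and 2.79 TPM in ENT1KO and 2.76, 1.89 and 2.11 TPM in WT, a log2 difference of 0.29 (limma adjusted p = 0.195). With quantile normalization the difference was 0.73 and was called (limma adjusted p = 0.0113). It has no stem-loop match, shares no 50-base stretch with another gene and, with a gene model of 2620 bases, had the fourth-highest mean normalized count of the 69 genes, 107. H2bc18 was at 0.36 to 2.50 TPM in ENT1KO and 0.33 to 0.69 TPM in WT, a log2 difference of 0.68 (limma adjusted p = 0.112). It was called without ENT1KO replicate 11 (0.95, limma adjusted p = 0.0218) and with quantile normalization (1.12, limma adjusted p = 0.0126), although it too passed the filter through ENT1KO libraries alone. Its normalized counts were only 0 to 1.91 in any library, and on that scale it was not called (0.80, limma adjusted p = 0.136). Summed over the 17 H2B genes, the level was 22.3 to 39.6 TPM in ENT1KO and 40.3 to 56.6 TPM in WT, without overlap, with H2bc4 as the largest term.

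H2ac24 (ENSMUSG00000094777.3, chr13:22017196-22017677) had the highest TPM of all 69 genes and no counted read. It encodes a replication-dependent H2A of the chromosome 13 cluster. Its levels were 170, 178, 231 and 262 TPM in ENT1KO and 300, 318 and 248 TPM in WT, and the highest ENT1KO library lay above the lowest WT library. The means were 210 ± 43.8 TPM (SD, n = 4) and 288 ± 36.4 TPM (SD, n = 3), and the log2 difference of -0.47 (standard error 0.18) did not pass the test (limma adjusted p = 0.0537). The call lay near its threshold and was made without ENT1KO replicate 15 (-0.58, limma adjusted p = 0.0249) and without WT replicate 3 (-0.57, limma adjusted p = 0.0404). It was also made with quantile normalization (-0.60, limma adjusted p = 0.0231) and with protein-coding genes only (-0.52, limma adjusted p = 0.0359). In the table of normalized counts H2ac24 was at 0 in all 7 libraries. Among genes with a mean of at least 10 TPM, 103 of 8485 (1.21%) had a normalized count of 0 in every library, and among protein-coding genes 33 of 8054 (0.41%). Of the 50-base stretches of H2ac24 93.1% occur in another gene, most often in H2ac23, and its gene model ends 3 bases after the stem-loop. H2ac23 itself was at 0 to 0.58 TPM.

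H2ac18 and H2ac19, on chromosome 3, encode replication-dependent H2A and showed the same contrast between the measures. H2ac18 stood at 14.4, 11.8, 6.04 and 16.2 TPM in ENT1KO and 5.24, 12.8 and 9.35 TPM in WT (log2 difference 0.37, limma adjusted p = 0.415). H2ac19 stood at 0, 3.08, 8.04 and 0.17 TPM in ENT1KO and 5.84, 0 and 1.54 TPM in WT. H2ac19 was highest in the 2 libraries where H2ac18 was near its lowest, ENT1KO replicate 14 and WT replicate 1, and both had a normalized count of 0 in all 7 libraries. Of the 50-base stretches of H2ac19 all (100%) occur in H2ac18, and of those of H2ac18 89.4% occur in another gene, including Gm20634, which was at 0.44 to 0.95 TPM. Their sum was 14.4, 14.9, 14.1 and 16.4 TPM in ENT1KO and 11.1, 12.8 and 10.9 TPM in WT. The sum varied less than either gene and its groups did not overlap, but the pair was chosen after its values were seen and has no test. The split of TPM between these 2 genes is uncertain.

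**Figure D3:**
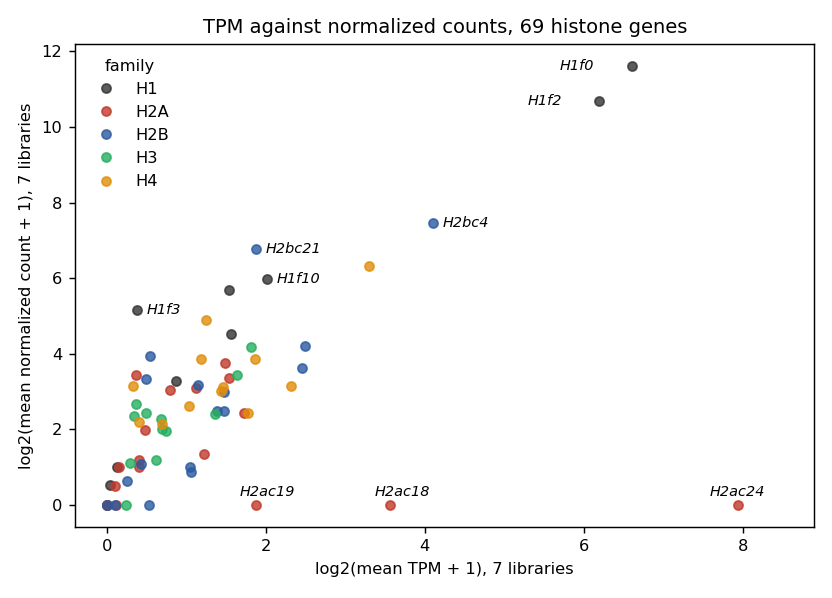
Mean level of the 69 histone genes over 7 libraries as TPM (horizontal) and as normalized count (vertical), both as log2(value + 1), colored by family. H1f0, H1f2 and H2bc4 are high on both axes, whereas H2ac24, H2ac18 and H2ac19 lie at a normalized count of 0.

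H2ac24, H2ac18 and H2ac19 belonged to a small group with TPM above 0 and no counted read. The normalized count was 0 in all 7 libraries for 11 genes, of which 4 were also at 0 TPM. The other 7 had 88.5% to 100% of their 50-base stretches in another gene. Sharing alone did not fix the count, since 9 of the 16 genes with 80% or more of their stretches shared had counted reads in at least 1 library. The median gene shared 49.3% of its stretches, and 9 genes shared none. H3 (median 62.0%) and H2A (median 78.9%) shared the most and H1 (median 0%) the least. For a gene that shares most of its stretches, the level of the single gene is uncertain in both measures.

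H2ac13 was the other H2A gene called. It stood at 1.68, 1.89, 1.58 and 0 TPM in ENT1KO and at 0 in all 3 WT libraries, a log2 difference of 1.08 (standard error 0.37, limma adjusted p = 0.0381). It passed the filter through ENT1KO libraries alone, which this p does not allow for, and 1 ENT1KO library was at the WT level. In 3 of the 4 libraries where its TPM was 0 it had counted reads (normalized counts of 10.3 and 4.98 in WT replicates 2 and 3, and 5.89 in ENT1KO replicate 15), and on that scale the difference was not called (1.17, limma adjusted p = 0.257). The call was also lost without any 1 of 6 libraries, namely ENT1KO replicate 11, 12 or 14 or WT replicate 1, 2 or 3 (limma adjusted p = 0.0759 to 0.0979). Of its stretches 90.1% are shared, most often with H2ac7 (84.0%). H2ac6, under the filter at 0.06 to 0.69 TPM, is called lower in the authors' deposited table (-1.74, adjusted p 0.0449).

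H4c17 (ENSMUSG00000069306.6, chr13:21995916-21996317) encodes histone H4 and was the only H4 gene called on TPM. It stood at 3.93, 2.80, 3.11 and 7.12 TPM in ENT1KO and was listed at 0 in all 3 WT libraries, and normalized counts were 9.15, 4.88, 3.83 and 12.8 against 0, 0 and 0. The log2 difference was 2.32 (standard error 0.27, limma adjusted p = 0.00126), and no fold is given against a group at 0. H4c17 passed the filter through the ENT1KO libraries alone, and this p does not allow for that. Of the 13798 genes tested, 2 (0.0145%) were at 0 TPM in every WT library and above 0 in every ENT1KO library, H4c17 among them, and 5 (0.0362%) the reverse. Of its 50-base stretches 89.8% occur in H4c18, and the printed stem-loops of the 2 genes have the same 16 bases. H4c18 stood at 0.37, 3.24, 3.02 and 4.97 TPM in ENT1KO and at 5.40, 5.20 and 5.52 TPM in WT, a log2 difference of -0.89 that was not called (standard error 0.45, limma adjusted p = 0.131). The sum of the pair was 4.30, 6.04, 6.13 and 12.1 TPM in ENT1KO and 5.40, 5.20 and 5.52 TPM in WT, and the groups overlapped because ENT1KO replicate 11 was below all WT libraries while the other 3 ENT1KO libraries were above them. On normalized counts the sum was 9.57 to 23.6 against 6.15 to 11.95. The split of reads between these 2 genes is uncertain.

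**Figure D4:**
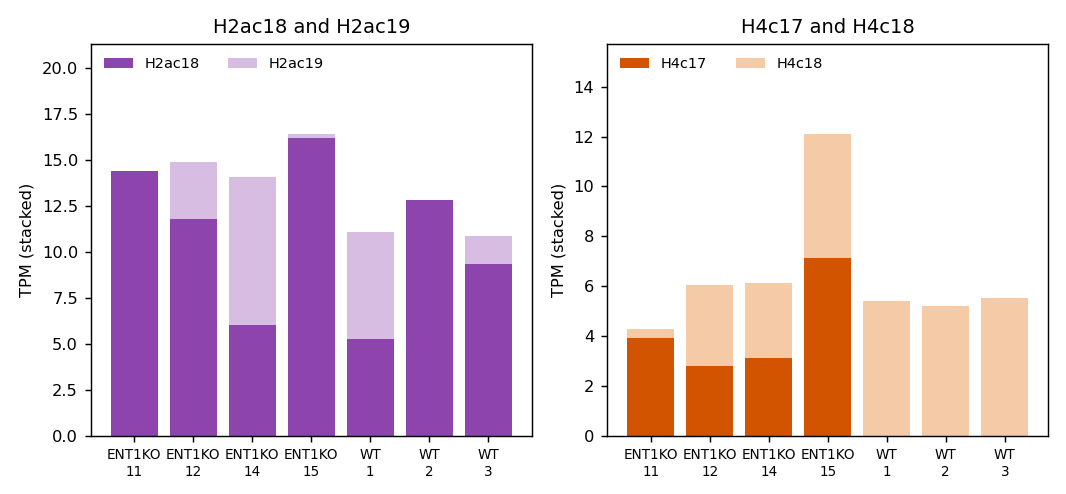
Stacked TPM of 2 gene pairs with shared sequence in each of the 7 libraries. In the left panel H2ac18 and H2ac19 exchange places while their sum stays between 10.9 and 16.4 TPM, and in the right panel H4c17 appears in the 4 ENT1KO libraries alone while the WT bars hold H4c18 alone.

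H4c9 was the most abundant H4 gene. It stood at 5.81, 6.97, 5.97 and 10.4 TPM in ENT1KO and 10.8, 13.6 and 8.56 TPM in WT, a log2 difference of -0.54 (standard error 0.23, limma adjusted p = 0.0789). Without ENT1KO replicate 15, its highest ENT1KO library, it was called (-0.70, limma adjusted p = 0.0242), and the authors' deposited table gives -0.81 with an adjusted p of 0.0449. The H4 sum was 20.2 to 37.4 TPM in ENT1KO and 25.9 to 29.3 TPM in WT, and the H3 sum 7.98 to 13.8 TPM against 8.92 to 12.1 TPM, and both overlapped. Of the 12 H3 genes only H3c1, H3c3 and H3c13 passed the filter, at 0.77 to 3.20 TPM. None of the 3 was called by limma on TPM or on normalized counts, and 0 had an unadjusted p under 0.05 on TPM. For the 19 tested genes whose difference is not given singly, H2ac19 among them, log2 differences ran from -0.57 to 0.47 (limma adjusted p = 0.186 to 0.990). Of these genes 13 were below 0 and none had TPM groups that did not overlap. On normalized counts the groups of H4c8 did not overlap, with ENT1KO lower, but it was not called (limma adjusted p = 0.154).

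**Figure D5:**
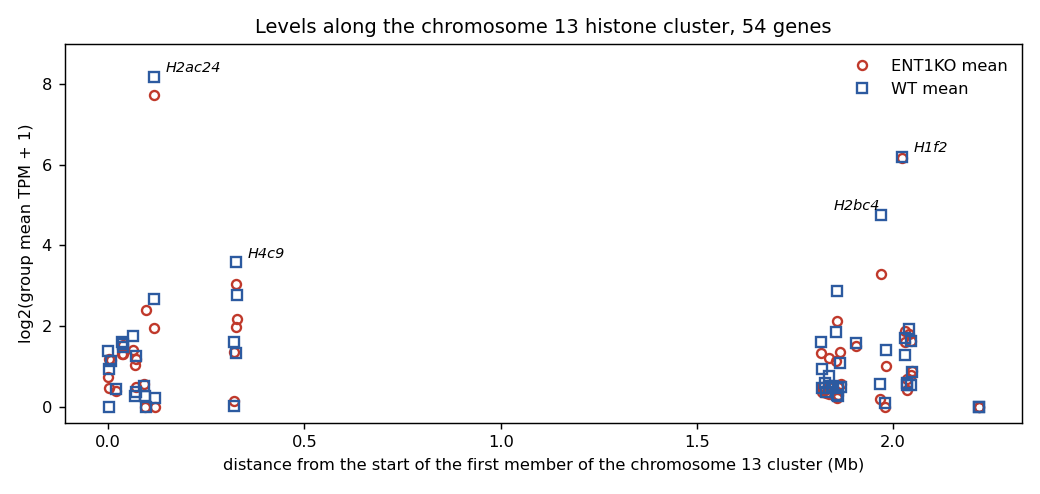
Group mean level, log2(mean TPM + 1), of the 54 histone genes of the chromosome 13 cluster against distance from the first of them in megabases (circles, ENT1KO; squares, WT). H2ac24, H1f2, H2bc4 and H4c9 have the highest means, and the other genes, H2bc8, H2bc11, H4c18 and H4c17 among the higher of them, lie below 3.

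Along the chromosome 13 cluster, which spans 2219 kb, high and low genes were interleaved, as the plot of levels by distance shows. The class of the longest gene model gave no simple order of levels. The median of the mean level was 1.77 TPM for 20 genes whose model ends within 60 bases of the stem-loop, and 0.41 TPM for 20 whose model runs on further. It was 0.61 TPM for 7 genes with no stem-loop and AATAAA in the last 50 bases, 0.45 TPM for 11 with neither, and 1.06 TPM for 11 whose model holds the coding sequence only. TPM divides by the length of the model. The median normalized count had the reverse order for the first 2 classes, 4.48 against 11.2. Of the 4 genes called lower, H1f0 and H1f10 were of the class with AATAAA and no stem-loop, H2bc4 had neither, and H2ac8 had a stem-loop and 151 bases beyond it. H4c17 ends 3 bases after its stem-loop, and the model of H2ac13 is its coding sequence.

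Summed over all 69 genes, histone RNA stood at 352 to 515 TPM in ENT1KO and at 548 to 719 TPM in WT. The groups did not overlap, with means of 430 ± 67.7 TPM (SD, n = 4) and 637 ± 85.5 TPM (SD, n = 3). H2ac24, H1f0, H1f2 and H2bc4 together had 282 to 394 TPM in ENT1KO and 460 to 619 TPM in WT. Among these, H1f0 and H2bc4 alone had groups that did not overlap, and H1f0 was the larger of them. H2ac24, the largest term, and H1f2 were not called, and H2ac24 had no counted read. These sums have no test and do not show a fall of all histone genes. The other 65 genes summed to 69.2 to 121 TPM in ENT1KO and 88.0 to 103 TPM in WT, and the groups overlapped.

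The pathway that makes histone mRNA was measured through 14 genes of transcription and 3' end processing, of which 7 were called higher, 0 lower and 7 not called (median log2 difference 0.33, beside 0.15 over all genes). The share called in either direction was near the 50.6% of all genes tested. All 7 calls on TPM were higher, where 27.5% of all genes were called higher and 23.1% lower, and fewer calls were made on normalized counts (below). Slbp, whose product binds the stem-loop, stood at 135, 128, 157 and 157 TPM in ENT1KO and 110, 80.3 and 120 TPM in WT (0.49, standard error 0.16, limma adjusted p = 0.0311). On normalized counts its difference was 0.32 and was not called (limma adjusted p = 0.0518). Npat, the S-phase activator of clustered histone genes, rose from 10.4 ± 2.37 TPM (SD, n = 3) to 17.02 ± 1.95 TPM (SD, n = 4), with a log2 difference of 0.67 (limma adjusted p = 0.0127). Casp8ap2 (FLASH), which acts in histone pre-mRNA cleavage, rose by 0.94 on the log2 scale (limma adjusted p = 0.00482). Srrt rose by 0.58 (limma adjusted p = 0.0159), and Cpsf3, the nuclease that cuts histone pre-mRNA, by 0.47 (limma adjusted p = 0.0121), although the call of Cpsf3 was lost on normalized counts (limma adjusted p = 0.0841). On normalized counts 4 of the 14 were called higher and 0 lower by limma, beside 21.2% and 28.5% of all genes. The authors' deposited table also calls 4 higher and 0 lower, beside 16.5% and 25.8% of all genes. At an unadjusted p under 0.05 on TPM 8 were higher and 0 lower, a level at which all genes were not counted. The 7 called genes went in the direction of the CD8 T cell identity genes and opposite to the fibroblast, macrophage and erythroid markers, and the part of cell makeup was not tested.

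Of 27 genes of S phase and proliferation tested, 0 were called higher, 1 lower (Gins2) and 26 not called by limma on TPM (median log2 difference 0.03), where 27.5% of all genes were called higher and 23.1% lower. At an unadjusted p under 0.05 the counts were 2 higher and 3 lower, a level at which all genes were not counted. On normalized counts, and in the authors' deposited table, 0 were higher and 3 lower, beside 28.5% of all genes called lower on normalized counts and 25.8% in the deposited table. Pcna, the replication clamp, had 301 to 428 TPM in ENT1KO and 280 to 324 TPM in WT (limma adjusted p = 0.253), and Mcm6, a subunit of the replicative helicase, 130 to 191 TPM against 125 to 144 TPM (limma adjusted p = 0.403). Gins2, a helicase partner, fell by 0.67 on the log2 scale (limma adjusted p = 0.0347). Mki67, the Ki-67 marker of cycling cells, stood at 55.5, 58.7, 66.0 and 86.0 TPM in ENT1KO and 60.3, 39.3 and 43.3 TPM in WT (0.48, limma adjusted p = 0.0679). ENT1KO replicate 15 had the highest Mki67 and also the highest H4 sum, 37.4 TPM.

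Among 17 histone chaperone and assembly genes 7 were called higher, 2 lower and 8 not called (median log2 difference 0.12). Over all genes 27.5% were called higher and 23.1% lower, with a median of 0.15. On normalized counts 4 of the 17 were called higher and 2 lower, beside 21.2% and 28.5% of all genes. Cabin1 rose by 0.76 on the log2 scale (limma adjusted p = 0.00715) and Daxx, a chaperone of H3.3, by 0.75 (limma adjusted p = 0.00519), whereas the most abundant, Nap1l1 and Ssrp1, were not called. Of 11 replication-independent variant genes 2 were called higher and 2 lower (median log2 difference 0.13), beside 27.5% and 23.1% of all genes. On normalized counts 3 of the 11 were called higher and 1 lower, beside 21.2% and 28.5% of all genes. H3f3a and H3f3b, which encode H3.3, had 689 to 808 TPM and 964 to 1107 TPM over the 7 libraries and were not called. H3f3b alone was above the sum of all 69 histone genes in each of the 7 libraries. Macroh2a1 rose by 0.69 on the log2 scale (limma adjusted p = 0.00397) and Macroh2a2 fell by 2.20 (limma adjusted p = 0.00166). Macroh2a2 stood at 0 to 1.01 TPM in ENT1KO and 3.73 to 7.72 TPM in WT, so that, like H1f10, it was at 1.01 TPM or less in each ENT1KO library.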

How the data were processed

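RNA-seq of 7 samples (4 ENT1KO, 3 WT, grouped by sample title) was analysed from 2 tables that the authors deposited. The first holds TPM per gene, which the authors computed, and keeps no depth. In the second the sample columns hold a signal, the normalized count of reads that the authors made by dividing by 1 size factor per library, beside log2 fold changes and adjusted p-values as the authors deposited them. The submitters' processing notes list the build GRCm39 and the tools DESeq, DESeq2 1.30.1, RSEM, STAR 2.7.1a and Trimmomatic 0.35 and 0.38, with no role given. The sources used here do not state how reads that match several genes were treated. By its name the TPM table is stranded.

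The 13798 genes that reached 1 TPM in 3 or more samples were tested on log2(TPM + 1) with limma-trend (robust option, genotype as sole term), with p adjusted over all of them by Benjamini-Hochberg (limma 3.58.1, R 4.3.3; Python 3.11.15). The normalized counts of 100% of genes were whole multiples of a step in each column (tolerance 0.01), but the steps of WT replicates 1 and 3 are too close to 1 to prove whole reads. No count model was run and no count intervals were computed. Shared sequence was counted as 50-base stretches of a gene's transcripts that also occur on the same strand in transcripts of other GENCODE M21 genes (GRCm38), a length chosen here. Transcript sequences and promoter windows come from GRCm38 and were joined by identifier or symbol, never by position, to the deposited table, whose coordinates are GRCm39. The script was tested on simulated data.

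Every tested histone gene could be named, and of each list of other genes the 2 most abundant and the 2 with the smallest p. Slbp, Npat, Mki67 and Slc29a1 were always named. The histone genes and the 13 lists (histone mRNA processing, chaperones, variants, S phase, and 9 cell types) were chosen with earlier results of these data known. Of the processing list, 1 symbol (Symplk) matched no row. Alternatives were pseudocounts of 0.1 and 5, a lower filter (above 0 in any sample), a higher one (5 TPM in 3 or more), quantile normalization, log2(normalized count + 1) in place of TPM, restriction to protein-coding genes, and each library left out in turn.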

Additional observations from a re-analysis of the deposited data

Results flagged for a closer look

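Within the 4 ENT1KO libraries, replicate 15 stood apart from the other 3 for 4 histone genes and 1 family, by the gap between it and the nearest library relative to the whole range (Dixon's test at the 95% level, 50 groups checked, where chance flags about 1 in 20). H4c4 was at 2.50 TPM in ENT1KO replicate 15 and at 1.14 to 1.31 TPM in the other ENT1KO libraries. H4c6 was at 2.54 TPM there, against 0.73 to 1.03 TPM. H2ac22 was at 4.51 TPM there, against 0 to 0.54 TPM. The H4 sum was 37.41 TPM there, against 20.2 to 21.6 TPM. H2ac13 went the other way, at 0 TPM there, against 1.58 to 1.89 TPM. The same library had the highest Mki67 level (86.0 TPM) and the lowest fibroblast and tumour sum (11.9 TPM).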

How the results depend on the processing

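H1f0, H1f10 and H2bc4 kept their fall and their call under all 14 alternatives, and H4c17 kept its rise under the 13 that gave it a value (not under the filter of 5 TPM). H1f10 and H4c17 passed the main filter only through the group where they were high, and a kept call does not remove that limit. With H4c17 at 0 in every WT library, its difference stayed at 2.32 whichever WT library was left out. No alternative addressed the split of reads between H4c17 and H4c18. The number of histone genes called higher, 2, was 0 with the 5 TPM filter, 1 with the filter above 0, 1 on normalized counts and 6 with quantile normalization, and 1 to 2 without single libraries. The number called lower, 4, was 8 without ENT1KO replicate 15 and 3 to 8 over all libraries left out. H1f4 turned to 0.32 and H1f5 to 0.0737 with quantile normalization. Without single libraries H1f2 ran from -0.268 to 0.0580 (above 0 without ENT1KO replicate 11 or 14) and H1f4 from -0.265 to 0.00691 (above 0 without ENT1KO replicate 11). Over all 36 tested genes, 45 of 474 pairs of gene and alternative changed sign, none in a called gene, 14 gained a call and 10 lost one. The cause was not tested. On normalized counts the median over all genes was 0.00128, a shift of -0.14 from TPM, and H2ac24, H2ac18 and H2ac19 gave no value. With most histone genes near 1 TPM, differences of the size seen in the tested genes that were not called could not be separated from the spread. No paired analysis was possible because the groups share no replicate number.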
